A study of Mus musculus with 4 samples.

Results

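The 2 Parp-1 deficient clones, 210-58 and 226-47, were compared with each other as 2 of the 4 samples of a study of DNA methylation at CpG islands in mouse embryonic stem cells. Parp-1 is the main nuclear enzyme that attaches poly(ADP-ribose) chains to proteins. Both clones were derived from the mouse embryonic stem cell line J1 and carry the genotype label Parp-1 deficient; the other 2 samples are J1 without either change (wild type J1) and J1 treated with the Parp inhibitor PJ34. Methylated DNA was captured with an antibody against methylated cytidine, given the Cy5 dye and put on an array together with the sample's whole DNA in Cy3, 1 array per sample. Each clone is a single cell line with 1 array, so no spread between cultures exists, no test was run, and a trait of one clone cannot be told apart from a trait of its culture or array. The clone 210-58 array shared slide 1 with wild type, and the clone 226-47 array shared slide 2 with PJ34, so clone and slide cannot be told apart either.

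A region was a run of at least 3 probes with neighbouring starts no more than 500 bp apart. Its level is the mean over its probes of log2(IP signal / whole DNA signal), centred so that 0 is the median probe of an array. There were 14121 regions with 95657 probes. Positions are those of the files, which fit mouse build mm8, and gene names were added by laying the pattern of gaps between regions over that between gene starts. By this pairing 10830 regions (76.7%) lay at a gene start, 2090 inside a gene, and 1201 had no gene. Where no promoter entry was held for a gene, either end of the gene counted as its start.

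CpG islands at most gene starts are unmethylated in embryonic stem cells. At imprinted genes the copy inherited from one parent is methylated in the germ line and is kept so through later cell divisions, while the other copy is not, so these regions stay enriched in a methylated DNA pull-down. The zinc finger protein ZFP57 binds the methylated letters TGCCGC within many such regions and is needed to keep their methylation. Imprinted methylation is known to be lost in some cultured stem cell lines.

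The promoters of the genes whose islands separated the clones most are shown so that the CpGs near the compared islands can be read; how far each window overlaps the probes was not measured. The 250 bases before the start are given from RefSeq (GRCm38.p6), 5′ to 3′ on the gene's strand, with each CpG, the site of methylation, in capitals. The RefSeq table held 7 of the 9 genes looked up. Impact, whose region had the largest difference, and Peg10 were not held, so no window is shown for them. D1Pas1, the region with the largest difference in the other direction, and Peg3, whose region was low in both clones, stand last. The windows lie at chr6:30737800-30738049 (plus strand) for Mest, chr7:143296548-143296797 (minus) for Kcnq1ot1, chr10:13090582-13090831 (plus) for Plagl1, chr6:58907127-58907376 (minus) for Nap1l5, chr2:157559828-157560077 (plus) for Nnat, chr1:186967166-186967415 (plus) for D1Pas1 and chr7:6730420-6730669 (minus) for Peg3. For Mest, which has 3 starts in the table, the window with the most CpGs is shown.
Mest: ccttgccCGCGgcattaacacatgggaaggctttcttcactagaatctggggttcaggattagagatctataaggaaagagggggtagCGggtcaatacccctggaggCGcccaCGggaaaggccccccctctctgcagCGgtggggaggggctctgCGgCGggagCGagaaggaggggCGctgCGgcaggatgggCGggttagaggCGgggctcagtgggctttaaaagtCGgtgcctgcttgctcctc
Kcnq1ot1: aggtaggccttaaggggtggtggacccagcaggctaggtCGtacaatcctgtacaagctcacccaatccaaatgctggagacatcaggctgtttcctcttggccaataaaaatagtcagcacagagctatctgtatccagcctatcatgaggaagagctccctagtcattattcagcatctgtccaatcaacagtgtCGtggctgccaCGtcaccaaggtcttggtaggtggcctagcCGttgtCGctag
Plagl1: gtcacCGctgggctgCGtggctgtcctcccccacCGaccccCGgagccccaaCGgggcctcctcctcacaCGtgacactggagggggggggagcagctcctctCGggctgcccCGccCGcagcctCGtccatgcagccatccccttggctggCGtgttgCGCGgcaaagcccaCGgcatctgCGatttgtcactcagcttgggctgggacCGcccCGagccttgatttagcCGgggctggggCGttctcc
Nap1l5: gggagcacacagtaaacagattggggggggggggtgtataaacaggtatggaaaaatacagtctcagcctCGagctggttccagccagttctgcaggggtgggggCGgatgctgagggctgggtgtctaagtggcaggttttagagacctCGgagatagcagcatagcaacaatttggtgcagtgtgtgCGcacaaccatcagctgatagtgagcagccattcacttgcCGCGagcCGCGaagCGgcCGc
Nnat: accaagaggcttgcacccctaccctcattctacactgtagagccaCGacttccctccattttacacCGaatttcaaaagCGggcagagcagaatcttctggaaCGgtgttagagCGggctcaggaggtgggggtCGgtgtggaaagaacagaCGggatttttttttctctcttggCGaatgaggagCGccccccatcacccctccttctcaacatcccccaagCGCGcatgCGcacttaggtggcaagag
D1Pas1: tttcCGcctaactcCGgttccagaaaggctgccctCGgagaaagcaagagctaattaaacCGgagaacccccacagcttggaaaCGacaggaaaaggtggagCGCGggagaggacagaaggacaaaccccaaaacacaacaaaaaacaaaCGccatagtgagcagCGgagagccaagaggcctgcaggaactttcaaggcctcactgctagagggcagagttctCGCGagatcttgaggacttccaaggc
Peg3: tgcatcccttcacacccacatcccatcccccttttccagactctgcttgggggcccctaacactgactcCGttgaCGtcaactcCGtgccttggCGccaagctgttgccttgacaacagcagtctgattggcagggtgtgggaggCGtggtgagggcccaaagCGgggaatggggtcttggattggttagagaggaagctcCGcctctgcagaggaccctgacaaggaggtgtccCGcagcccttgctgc

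These windows held 14 CpGs for Mest, 5 for Kcnq1ot1, 19 for Plagl1, 10 for Nap1l5, 12 for Nnat, 11 for D1Pas1 and 8 for Peg3, beside a median of 6 over 32851 promoters. The letters TGCCGC were searched on both strands. They occurred in the windows of Mest (2 times), Plagl1 (1 time) and Nap1l5 (1 time), and not in those of Kcnq1ot1, Nnat, D1Pas1 or Peg3. Of all promoters in the table, 8.68% held them.

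Most regions had like levels in the clones: the median size of the difference (210-58 minus 226-47) was 0.29 and its 95th percentile 0.85, on the log2 scale. A difference of at least 1 was seen at 337 of 14121 regions (2.39%), of which 199 (1.41%) were higher in 210-58 and 138 (0.977%) higher in 226-47. The differences just inside this limit were 1.001 and -1.001, and those just outside were 0.997 and -0.9997. A difference of at least 2 was seen at 7 regions, and each of these was an imprinted island that was lower in 210-58. The next largest deficit of 210-58, at the start of Ankfy1, was -1.65, and no excess of 210-58 reached 2.

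**Figure D1:**
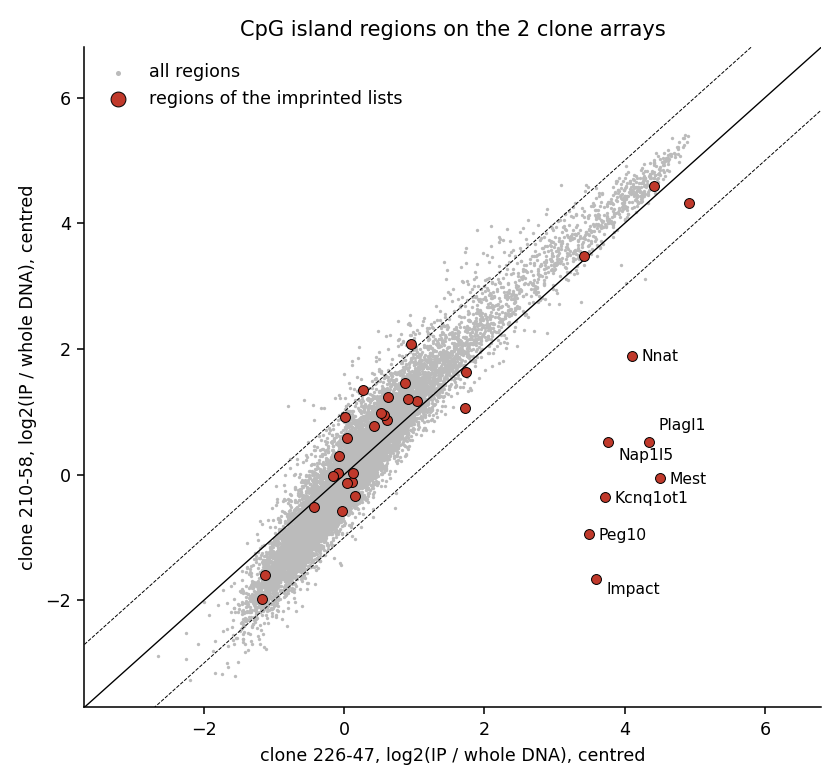
Level of each of 14121 regions on the clone 226-47 array (x axis) and the clone 210-58 array (y axis), as centred log2 of IP over whole DNA; the solid line is equality, the dashed lines are 1 apart, and red points are the 35 regions of the imprinted gene lists. The 7 named regions lie below the line of equality, with differences of -5.25 to -2.20.

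The largest difference lay at Impact, which encodes an inhibitor of the translation-control kinase GCN2. Its region inside the gene (chr18:13116490-13116973, 3 probes) stood at 3.31 in wild type, 3.60 in clone 226-47 and 4.47 under PJ34, but at -1.66 in clone 210-58. The clones differed by -5.25 (SD over probes 0.66). Clone 210-58 thus lay well under the median probe, whereas the other 3 arrays were all at strong enrichment.

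Mest encodes a hydrolase-fold protein expressed from the paternal copy in mesoderm. The region at its start (chr6:30688022-30688551, 6 probes) stood at 2.19 in wild type, -0.05 in 210-58, 4.50 in 226-47 and 2.77 under PJ34, a difference between the clones of -4.55 (SD over probes 1.46). Here the clones left the wild type level on opposite sides, by -2.24 in 210-58 and 2.31 in 226-47. All 6 probes were lower in 210-58, and the lowest probe of 226-47, at 3.89, was above the highest of 210-58, at 1.46.

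The island shared by Sgce and Peg10, the latter a gene derived from a retrotransposon and needed for the placenta, lay at chr6:4697308-4698444 (8 probes). Its level was 2.78 in wild type, -0.94 in 210-58, 3.49 in 226-47 and 3.87 under PJ34, and the clones differed by -4.43 (SD over probes 1.45). In 210-58 the Cy5 signal was well above background for 6 of these 8 probes, so the lower end of that level is imprecise.

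Kcnq1ot1 is a long non-coding RNA that silences its neighbours on the paternal chromosome. The region at its start, within Kcnq1 (chr7:143104693-143106020, 8 probes), had 3.55 in wild type, -0.36 in 210-58, 3.72 in 226-47 and 4.59 under PJ34. The difference was -4.08 (SD over probes 0.42), and every probe showed it, from -4.54 to -3.44.

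Plagl1 encodes a zinc finger transcription factor that restrains growth. At its start (chr10:12780667-12781550, 8 probes) the level was 3.43 in wild type, 0.53 in 210-58, 4.35 in 226-47 and 4.29 under PJ34, a difference of -3.82. The SD over probes was 2.02. In 210-58 1 of the 8 probes stood at 4.11, as high as on the other arrays, and its neighbour at 1.78, a difference of -1.61. At the other 6 the difference was -5.37 to -4.06.

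Nap1l5, a relative of nucleosome assembly proteins that lies inside Herc3, had 2.84 in wild type, 0.52 in 210-58, 3.77 in 226-47 and 3.17 under PJ34 (chr6:58836201-58836830, 5 probes). The clones differed by -3.25 (SD over probes 0.38). Nnat, which encodes the membrane protein neuronatin, had 3.57 in wild type, 1.90 in 210-58, 4.10 in 226-47 and 4.64 under PJ34 (chr2:157251405-157252100, 7 probes), a difference of -2.20 (SD over probes 0.36). Nnat was the one of the 7 at which 210-58 stayed above 1. A lower level in all cells and a loss in part of the cells cannot be told apart in these bulk samples.

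The raw signals placed these differences in the IP channel. At Mest the median Cy5 signal was 139 units in 210-58 and 2025 in 226-47, beside Cy3 signals of 330 and 315. At Impact the Cy5 signals were 90 and 1447, beside Cy3 signals of 354 and 352. Over the 7 regions the Cy3 level of the clones differed by -0.00 to 0.25 on the log2 scale, so the amount of whole DNA differed little beside the IP signal.

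**Figure D2:**
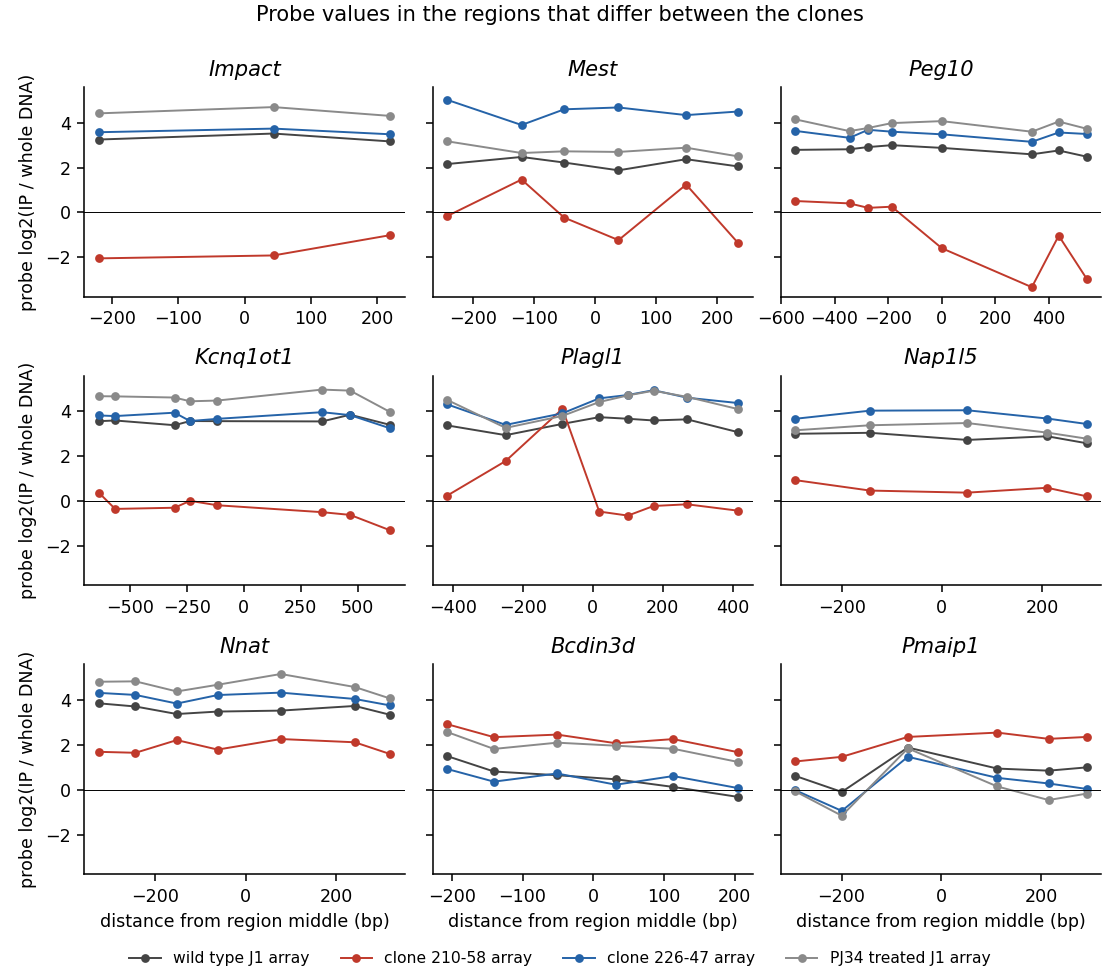
Probe levels (y axis, centred log2 of IP over whole DNA) against distance from the region's middle in bp (x axis) on the 4 arrays, for the 7 imprinted regions and for Bcdin3d and Pmaip1. Clone 210-58 runs below the other arrays in the imprinted regions, except at 1 probe of Plagl1, and above them at Bcdin3d and Pmaip1.

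On the centred values the other imprinted islands did not separate the clones in this way. Of the list of 23 genes with a methylated maternal copy, 21 were paired with 27 regions. Of these, 7 were at least 1 lower in 210-58 and 2 at least 1 higher, beside 0.977% and 1.41% of all regions. The median difference was -0.23 beside -0.08 over all regions. It does not describe the imprinted marks alone, as the list took in regions near 0 in wild type, such as Mcts2 (0.09) and the start of Grb10 (0.23). The list was drawn up with results of these samples known. A further set was low in both clones and high in wild type and PJ34 treated cells. Peg3, a zinc finger gene, stood at 3.49 in wild type, -1.60 in 210-58, -1.13 in 226-47 and 4.45 under PJ34 (chr7:6333486-6334587). Zrsr1 had 2.89, -1.98, -1.16 and 3.80 in the same order, Airn, the antisense RNA of Igf2r, 3.60, -0.57, -0.03 and 4.21, and Grb10 3.65, -0.12, 0.11 and 4.58. At these 4 regions and a pair inside Gnas the clones were within 0.82 of each other.

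Inpp5f held a middle position, at 3.79 in wild type, 1.06 in 210-58, 1.73 in 226-47 and 4.80 under PJ34. Peg13 and Cdh15 were high on all 4 arrays: Peg13 stood at 4.71, 4.32, 4.92 and 5.73, and Cdh15 at 4.31, 4.59, 4.42 and 5.36. The named maternal imprints that were high in wild type thus included some high in both clones, some low in both, and 7 lower in 210-58. Clone 226-47 showed no imprinted island at 2 or above in 210-58 and below 0.5 in itself.

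**Figure D3:**
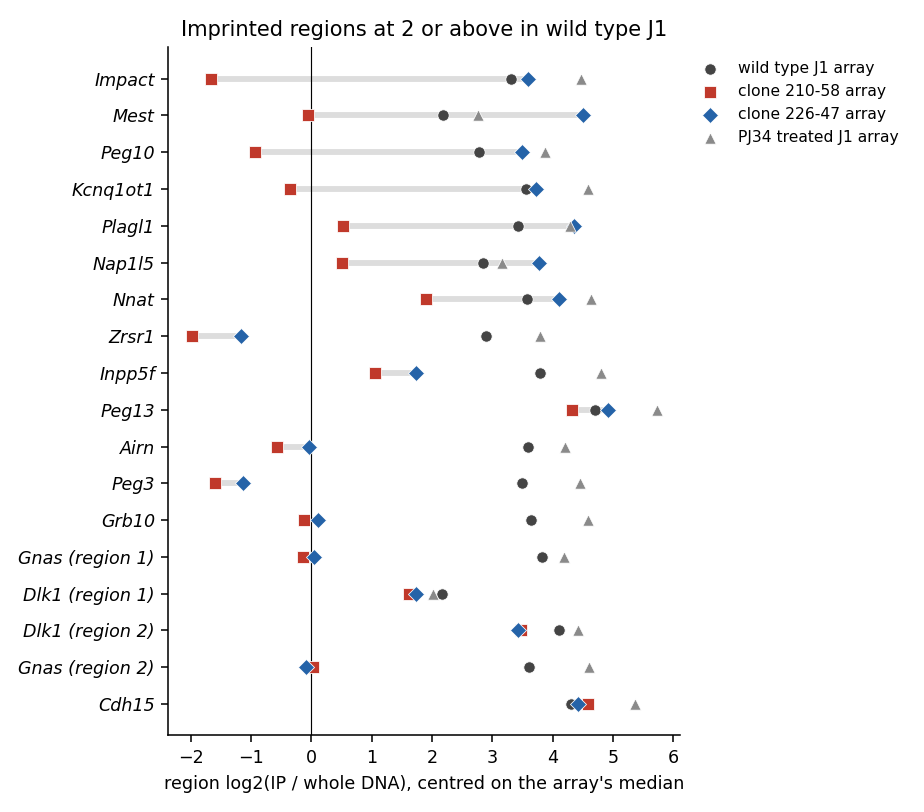
Levels (x axis, centred log2 of IP over whole DNA) on the 4 arrays of the 18 regions of the imprinted lists at 2 or above in wild type J1; the grey bar joins the clones and regions are ordered by their difference. Bars are long for the upper 7 genes, and for Zrsr1, Airn, Peg3, Grb10 and Gnas both clones lie far below wild type.

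On the side of the paternal imprints, 5 of 7 listed genes had 8 regions, and none differed by 1 or more (median 0.18, range -0.11 to 0.91). H19 and Meg3 had no region. Only the regions of Dlk1 were at 2 or above in wild type (2.16 and 4.10), and some others were below 0 there, such as Igf2 (-0.73) and Zdbf2 (-1.14). These regions thus say little on whether paternal imprints were kept alike in the clones. The region inside Dlk1 (chr12:109907502-109907902) had 4.10 in wild type, 3.48 in 210-58, 3.42 in 226-47 and 4.42 under PJ34. An unpaired region between Dlk1 and Dio3 (chr12:109975976-109976323, 4 probes) had 4.20, 3.11, 4.29 and 4.89, and the clones differed by -1.17. Its Cy3 level, the denominator of the ratio, was 1.21 higher in 210-58, and it lies in a stretch of lower whole DNA signal in 226-47 that is described with the whole DNA channel.

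The Igf2r promoter, which is not the imprinted maternal mark itself, was 1.12 higher in 210-58: it had 1.41 in wild type, 2.08 in 210-58, 0.96 in 226-47 and 1.56 under PJ34. A promoter region of Gnas (chr2:173927575-173929217) had 0.51, 1.35, 0.27 and 1.16, a difference of 1.08.

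The arrays of the clones also differed in the width of their profiles. Regions spanned an interquartile range of 1.48 in 210-58 and 0.999 in 226-47, beside 1.37 in wild type and 1.39 under PJ34, and regions at 2 or above made up 8.67% in 210-58 and 6.31% in 226-47. The differences also followed the level: among regions whose mean over the clones was below -1 the median difference was -0.63, and among those from 2 to 3 it was 0.47. After scaling each array by its median absolute deviation these were -0.26 and -0.28, and the median was -0.87 at 3 or above, where it had been 0.41. Each region was also followed through 4 other normalizations (quantile, that scaling, intensity loess and normexp background correction). A difference of at least 0.5 with the same sign was kept through all 4 at 92 of the 199 regions higher in 210-58 (0.652% of all regions) and 11 of the 138 higher in 226-47 (0.0779%). The normexp fit of the 210-58 array stood apart, with a 1st percentile of log2 Cy3 of 7.07 against 6.29 to 6.31 on the other arrays. Refitted without control spots and 6 spots of very high local background on that array, a choice made after the data were seen, it left 101 and 39 regions, among them all of the 92 and the 11.

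Of the 11, 7 were the imprinted islands above. The other 4 were the unpaired chromosome 12 region and the islands of Vat1, Vps25 and Vrk2 on chromosome 11. In each of these 4 the whole DNA signal was higher in 210-58, by 0.37 to 1.31, whereas at the 7 it was not above 0.25.

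Regions higher in 226-47 were mostly gene starts, and 124 of the 138 were below the median probe on both clone arrays. The 138 include the 7 imprinted islands. Of the 138, 131 (94.9%) lay at a gene start, beside 76.7% of all regions, and their median level was -2.10 in 210-58 and -0.97 in 226-47. Only 26 of the 138 had Cy5 well above background for all probes on both clone arrays. On chromosome 11 lay 39 of them (28.3%), beside 8.51% of all regions. Ankfy1, an endosomal protein gene on that chromosome, had -1.59 in wild type, -2.76 in 210-58, -1.11 in 226-47 and -1.69 under PJ34. The other regions named in this direction were the starts of Spata17 and Gpatch2 (-1.59), Unk (-1.49), Chmp6 (-1.49), Ccdc151 and Prkcsh (-1.47), Mcrs1 (-1.42) and Kif18b (-1.41), and an unpaired region of chromosome 11 from 48698757 (-1.49). None of these 8 kept a difference of 0.5 through all 4 normalizations, but with normexp refitted 5 did (Ankfy1, Unk, Chmp6, Kif18b and the unpaired region), all on chromosome 11.

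Regions higher in 210-58 were placed otherwise. Of the 199, 124 (62.3%) lay inside genes and 56 (28.1%) at gene starts, beside 14.8% and 76.7% of all regions. Of the 92 kept through all normalizations 51.1% lay inside genes and 37.0% at gene starts. The median level of the 199 was 2.34 in 210-58, 1.11 in 226-47, 1.64 in wild type and 2.25 under PJ34. Differences between the clones also rose with the level, and placement was not told apart from level. All but 3 had Cy5 well above background for every probe on both clone arrays. The named regions fell into sets by which array stood off.

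In one set clone 226-47 was below the other 3 arrays. D1Pas1, a testis-expressed DEAD-box helicase gene, had 3.40 in wild type, 3.89 in 210-58, 1.90 in 226-47 and 3.92 under PJ34 (chr1:188668157-188669074, 7 probes), a difference of 1.99 (SD over probes 0.42). Naa11, a testis-expressed acetyltransferase gene, had 3.36, 3.26, 1.47 and 3.77 in the same order, a difference of 1.79. Nefm, the gene of the medium neurofilament, had 4.25, 3.37, 1.73 and 5.12 over 15 probes, a difference of 1.64. A region within the gamma protocadherin cluster (chr18:37879154-37879762), whose genes encode neuronal adhesion proteins, had 2.94, 3.11, 1.45 and 3.21, a difference of 1.66. In each of the 4 the wild type array was nearer to 210-58.

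In a further set clone 210-58 was above the other 3 arrays. Pmaip1, which encodes the pro-apoptotic protein Noxa, had 0.86 in wild type, 2.04 in 210-58, 0.22 in 226-47 and 0.02 under PJ34 (chr18:66583808-66584437, 6 probes). The difference was 1.82 (SD over probes 0.60). Mgmt, the gene of a repair enzyme for alkylated guanine, had -0.76, 1.20, -0.58 and -0.34 in the same order at its start (chr7:136732729-136732997, 3 probes), a difference of 1.77 (SD over probes 0.17). The region inside Lmx1b, a LIM homeobox gene, had -2.47, 1.10, -0.81 and -2.01, a difference of 1.90. Epha2, an ephrin receptor gene, had -0.05, 2.44, 0.77 and 1.24 in a region within the gene, a difference of 1.67. The region inside Nr1h2, which encodes a liver X receptor, had -0.45, 1.86, 0.21 and 1.04, a difference of 1.65. In these 5 regions 226-47 was the nearer clone to wild type.

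At a further set PJ34 treated cells stood with 210-58. The region inside Bcdin3d, an RNA methyltransferase gene, had 0.53 in wild type, 2.28 in 210-58, 0.48 in 226-47 and 1.91 under PJ34 (chr15:99298417-99298879, 6 probes), a difference of 1.80 (SD over probes 0.17). The region inside Mbd3, at the start of the predicted gene Gm30823, had -1.37, 1.81, 0.11 and 2.17, a difference of 1.70. A second region of the gamma protocadherin cluster (chr18:37892152-37893027) had 0.54, 2.23, 0.65 and 2.10, a difference of 1.58. Bcdin3d and Pmaip1 were the 2 regions at 2 or above in 210-58 and below 0.5 in 226-47 (0.0142% of all regions); the reverse held for 4 regions (0.0283%), at Impact, Mest, Peg10 and Kcnq1ot1, with Nap1l5 and Plagl1 just outside at 0.52 and 0.53 in 210-58.

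The remaining named regions were enriched on all 4 arrays and highest or near highest in 210-58. Son, a splicing cofactor gene, had 2.72 in wild type, 3.95 in 210-58, 2.09 in 226-47 and 3.64 under PJ34. Ehmt2, the gene of the histone H3 lysine methyltransferase G9a, had 2.33, 3.54, 1.73 and 3.42. Pik3r4, a regulatory subunit of the class III lipid kinase, had 2.54, 3.62, 1.74 and 2.59. Sall4, a zinc finger gene of the pluripotency network, had 1.70, 3.31, 1.66 and 2.73 inside the gene. The clones differed by 1.65 to 1.87 in these 4, and Sall4 was the one that did not keep 0.5 through all normalizations (0.49 after intensity loess).

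**Figure D4:**
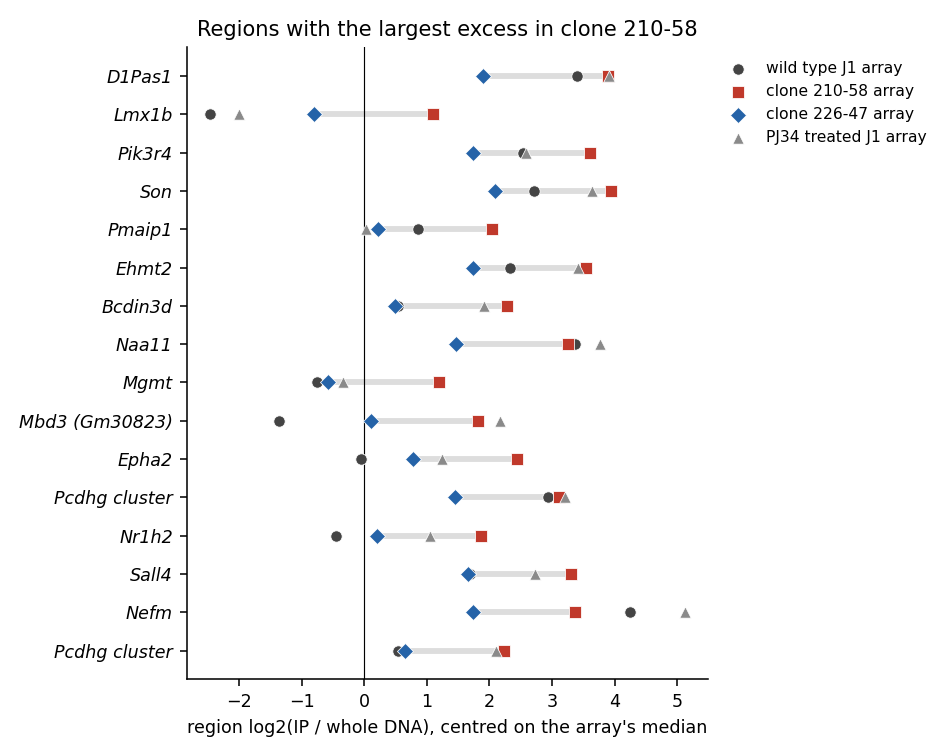
Levels (x axis, centred log2 of IP over whole DNA) on the 4 arrays of the regions named in the text with a difference of 1.58 or more in favour of clone 210-58, ordered by that difference; the grey bar joins the clones. Wild type J1 lies near 210-58 at D1Pas1 and Naa11 and near or below 226-47 at Bcdin3d, Mgmt, Epha2 and Nr1h2.

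Gene groups other than the imprinted ones showed few differences of 1 or more, beside 1.41% of all regions higher in 210-58 and 0.977% higher in 226-47. Of 20 germline genes, which are usually methylated at their starts in somatic cells, 13 had a region, and none passed 1; all 13 were higher in 210-58, by 0.48 to 0.89, with a median of 0.68 (3.37 in 210-58 and 2.66 in 226-47). Over all regions the median difference was 0.47 at mean levels from 2 to 3 and 0.41 at 3 or above, and the germline median was -0.23 after scaling by the median absolute deviation. Among protocadherins 3 of 12 regions were higher in 210-58 and none lower (median 0.26). Among Hox clusters 1 of 34 regions passed, Hoxc13, at 1.09 (median 0.23). The methylation machinery had 1 of 17, a region paired with Mbd1, a methyl-CpG binding protein gene, at 1.08 (median -0.22). Whether it lies at the start or the end of Mbd1 was not settled by the pairing. Among 12 housekeeping regions (median -0.35) 1 was higher in 210-58 and 1 lower; the latter was Tbp, at -1.31, where only 2 of 5 probes had Cy5 well above background in 210-58. None passed among 9 pluripotency regions (median -0.06), 15 lineage regions (median 0.01) or 16 regions of the PARP family (median -0.14). Apart from the imprinted and protocadherin lists, only regions at a gene start were counted. Regions inside listed genes were thus left out, among them Sall4 of the pluripotency list (1.65) and Mbd3 of the methylation machinery (1.70). The island of Parp1 itself had -1.09 in wild type, 0.35 in 210-58, -0.16 in 226-47 and -0.84 under PJ34, a difference of 0.51 between the clones; an island level does not check the deletion.

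The whole DNA channel of the clones differed on chromosomes 6, 11 and 12 by at least 0.3 on the log2 scale over 3 or more neighbouring bins of 50 probes. On chromosome 11 the Cy3 signal was higher in 210-58 throughout, with a median difference of 0.43 on the log2 scale over 8217 probes and 95.3% of probes above 0. Against wild type it was 0.49 higher in 210-58 and 0.07 in 226-47. On the other 18 autosomes the medians lay between -0.09 and -0.02, and on chromosome X the median was 0.08. The IP ratio on chromosome 11 had a median difference of -0.25 between the clones, beside -0.08 over all regions.

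Within chromosome 11 a run of 21 neighbouring regions over 629 kb (chr11:100971981-101601413) stood higher again. Its 21 regions had Cy3 differences of 0.94 to 1.44, while the 10 regions before and after it had medians of 0.46 and 0.41, and no other region of the chromosome reached 0.9. Over its 109 probes the Cy3 signal was 1.22 higher than wild type in 210-58, 0.05 in 226-47 and 0.01 under PJ34. It holds the starts of Becn1, an autophagy gene, Brca1, a gene of double-strand break repair, the proteasome activator gene Psme3 and the ribosomal protein gene Rpl27, and a region inside Ezh1. At Brca1 the Cy3 level was -0.47 in wild type, 0.86 in 210-58, -0.42 in 226-47 and -0.42 under PJ34. This run was singled out after its values were seen. A single region elsewhere, at the start of Dtx2 on chromosome 5, had a Cy3 difference of 1.51.

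On chromosome 6 the run called on the difference between the clones covered 5.73 Mb (chr6:83131235-88864343), with a median of -0.43. A wider stretch of 23.3 Mb (chr6:66966442-90290490) was cut where bins of 210-58 were at -0.2 or lower against wild type. Over its 950 probes 210-58 was 0.43 below wild type, which this cut itself favours, and the clones differed by -0.36. The wider stretch was split by the level of 226-47, the first part being where 226-47 was at -0.1 or lower against wild type. In that first part of 16.5 Mb clone 226-47 had a median of -0.15 with 83.3% of probes below 0, which the cut itself favours. In the last 6.82 Mb clone 226-47 was at -0.00, and there the clones differed by -0.43. On chromosome 12 the signal was lower in 226-47 over 5.16 Mb (chr12:105738094-110894365), at -0.76 against wild type, while 210-58 was at -0.04. That stretch holds 36 regions, among them those of Dlk1, Begain, Yy1, Bcl11b and Dio3. Inside the chromosome 12 and chromosome 6 stretches the IP ratio of the clones differed by medians of 0.02 and 0.04. Of the 7 imprinted islands, none lay in these stretches or on chromosome 11.

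**Figure D5:**
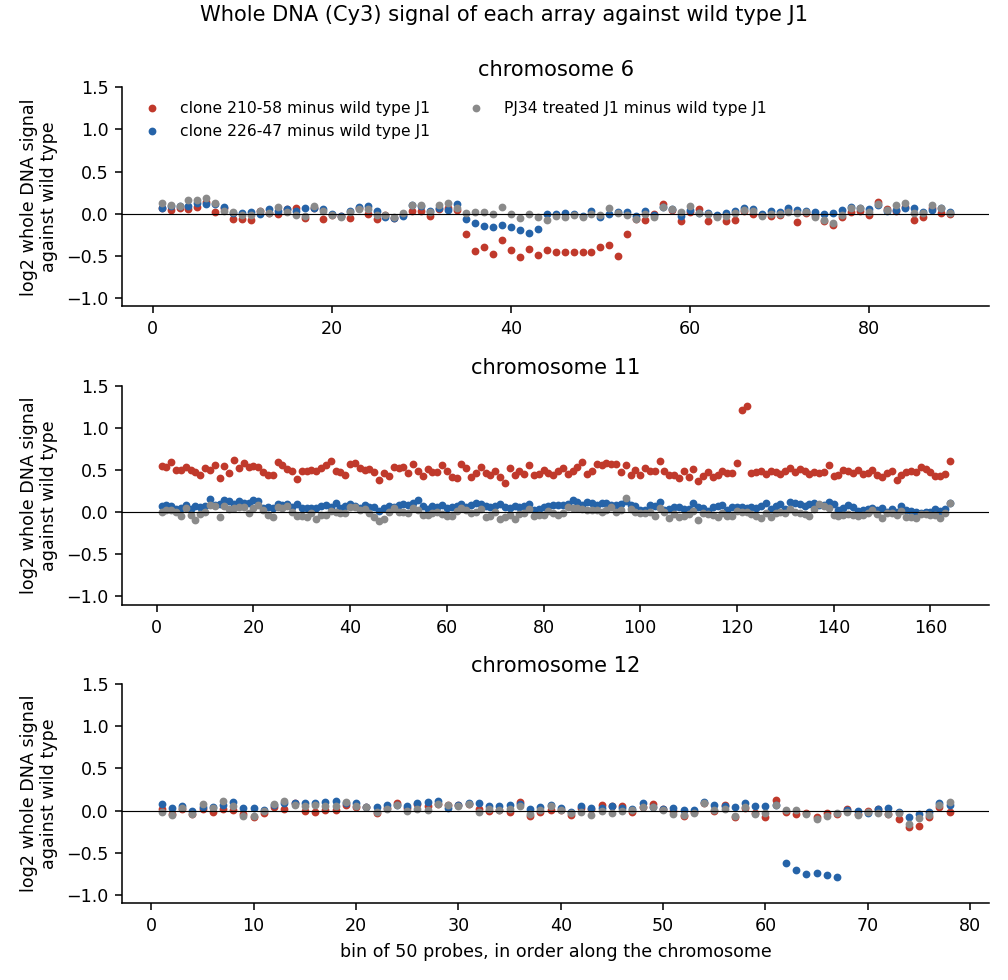
Median Cy3 (whole DNA) log2 signal of each array minus wild type J1 (y axis) in bins of 50 probes in order along chromosomes 6, 11 and 12 (x axis). Clone 210-58 is raised along chromosome 11 with 2 bins higher still and lowered in part of chromosome 6, and clone 226-47 is lowered in part of chromosome 12.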

How the data were processed

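The deposited spot intensities were background-subtracted and dye-normalized by Agilent Feature Extraction 10.7.3.1, per the file headers (9.1 in the submitters' processing notes). The deposited ratio table of the authors equals processed Cy5 over Cy3 within 2.13e-08. Of 97651 probes per array, 442 without a position and 30 with an outlier flag were left out; none was saturated. Log ratios were centred on each array's median, with no loess or quantile step, and averaged over regions; Cy3 was centred on autosomal probes, and its segments are runs of at least 3 bins of 50 probes at 0.3 or more. The number of arrays limits the precision.

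Members, gene lists (imprinted maternal and paternal, germline, pluripotency, lineage, methylation machinery, PARP family, Hox, protocadherin, housekeeping) and rules were chosen with earlier results of these data known. Named regions were the 15 largest differences in each direction with 75% of probes on that side and Cy5 well above background for 50% of probes, the 15 largest kept through all normalizations, regions at 2 or above in 1 clone and below 0.5 in the other, list regions at least 1 apart, Parp1, and the 10 largest Cy3 differences. No gene table of the files' build was used. Names came from the GRCm38 RefSeq table, with 77.7% of regions within 1000 bp of a gene start after the gap patterns were aligned and 9.12% before; this step, and running the lists through it, were added after the files were seen. Neighbours supported the alignment at 97.4% of regions, which asks that 50% of them meet a gene start. The alignment was chosen to let most regions meet a start, so these shares are no independent check of the names. Sall4, Nr1h2, Mbd3 (Gm30823) and the regions of the gamma protocadherin cluster were among the named regions near that limit, at a share of 0.55. Near it were also Peg13, at 0.545, and Dtx2 and Dio3, at 0.5. Normalizations used limma 3.58.1 in R 4.3.3 (normexp offset 50). Only the calling of regions at least 1 apart and of whole DNA bins was run on simulated data. The simulated arrays had equal widths, so they do not check the normalizations, the counts at unequal widths or the gene names. A few named results are not reported here.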

Additional observations from a re-analysis of the deposited data

Results flagged for a closer look

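At 13 of the named regions the clones lay on opposite sides of wild type J1, each by at least 0.5 on the log2 scale. Each value rests on 1 array, and the difference was not tested. Regions spanned an interquartile range of 1.48 in 210-58, 1.37 in wild type and 0.999 in 226-47. A wider profile lies further from 0 at both low and high levels. How far this enters at the 13 regions was not tested. At 5 of them, all imprinted islands, 210-58 was lower and 226-47 higher: -3.72 and 0.71 at Peg10, -2.90 and 0.92 at Plagl1, -2.33 and 0.93 at Nap1l5, -2.24 and 2.31 at Mest, and -1.67 and 0.53 at Nnat. At Mest the excess of 226-47 was as large as the deficit of 210-58, and PJ34 treated cells were at 2.77 beside 2.19 in wild type.

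The same order was found at 4 regions that were below the median probe on all 4 arrays. The values were -0.94 and 0.55 at Chmp6, -0.91 and 0.51 at Mcrs1, -0.90 and 0.57 at Ccdc151 and Prkcsh, and -0.76 and 0.73 at the unpaired region of chromosome 11 from 48698757. At Mcrs1 and at Ccdc151 and Prkcsh only 2 of 4 probes had Cy5 well above background in 210-58.

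The opposite order, with 210-58 higher and 226-47 lower than wild type, was found at 4 regions. The values were 1.23 and -0.63 at Son, 1.21 and -0.60 at Ehmt2, 1.18 and -0.64 at Pmaip1, and 1.08 and -0.80 at Pik3r4.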

How the results depend on the processing

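The 7 imprinted islands were at least 1 lower in 210-58 under every normalization run (quantile, scaling by the median absolute deviation, intensity loess, normexp, and, chosen after seeing the data, normexp refitted and loess on the clones' mean log ratio). In the maternal list the number of regions at least 1 lower in 210-58 was 7 under the other normalizations. It was 10 after scaling by the median absolute deviation, where Peg13 had -2.17, Cdh15 -1.29 and Inpp5f -1.18. After loess on the mean log ratio it was 8, with Peg13 at -1.06. Counts of all regions at least 1 apart moved far more. Given as higher in 210-58 and then higher in 226-47, the main counts of 199 and 138 became 97 and 23 after quantile normalization, 54 and 238 after scaling by the median absolute deviation, 21 and 36 after intensity loess, 85 and 10 after normexp, 73 and 15 after normexp refitted, and 82 and 16 after loess on the mean log ratio. A size of 0.5 gave 1424 and 2010, a size of 2 gave 0 and 7, and regions of at least 5 probes gave 95 and 77. With only probes well above background on both clone arrays, 42 were higher in 226-47. Centring by chromosome, the deposited ratio table, medians over probes and other gaps between probes left both counts within 1.5 times.

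Of regions kept through all normalizations, a minimum of 0.3 left 161 and 18, a minimum of 0.7 left 28 higher in 210-58, and normexp refitted left 39 higher in 226-47. At Ccdc151 and Prkcsh and at Mcrs1 normexp turned the difference to 0.21 and 0.25. Among 294 values of named regions under other settings, 165 moved by less than the SD over probes, 127 by more, and 2 reversed. Of 41 named differences of at least 1, 30 were over 1.5 times smaller after intensity loess, 21 after normexp and 13 after normexp refitted. After intensity loess D1Pas1 had 0.80, Pik3r4 0.72, Impact -3.30 and Nnat -1.85; after normexp Peg10 had -2.73. The median of the germline list was 0.20 after quantile, -0.23 after scaling, 0.070 after loess and 0.33 after normexp; normexp gave 0.20 for the methylation machinery, 0.19 for the PARP family and 0.13 for housekeeping genes, and scaling gave -0.14 for protocadherins. The cause was not tested.

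Whole DNA segments numbered 5, of which 3 make up chromosome 11; bins of 25 probes gave 13, bins of 100 gave 3, and limits of 0.2 and 0.4 gave 3 and 21, all on chromosomes 6, 11 and 12. Normexp gave -0.20 in the chromosome 6 segment. The log ratio difference within a segment minus that outside was -0.17 on chromosome 11, 0.10 on chromosome 12 and 0.14 in the chromosome 6 segment from 83131235; intensity loess gave -0.55, -0.52 and 0.42, normexp refitted gave 0.29 on chromosome 6, and on chromosome 12 scaling gave -0.28 and normexp -0.20. No paired analysis was possible because each clone has 1 array, and leaving out a replicate leaves no comparison. Low Cy5 signal limits levels far below 0.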
